A study of Mus musculus with 12 samples.

Results

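The liver is the main site at which the nitrogen of dietary and body protein is disposed of. Carriers in the hepatocyte membrane take up amino acids, aminotransferases and dehydrogenases strip off their nitrogen, separate routes break down the carbon chains, and the urea cycle turns the ammonia and aspartate that result into urea, partly in the mitochondria and partly in the cytosol. The transcripts of 53 genes of this system were followed here, out of 46078 genes in the count table. The members were chosen by a list of gene symbols and fall into 11 routes: 8 enzymes and carriers of the urea cycle, 4 amino acid carriers of the plasma membrane, 6 genes of glutamine, glutamate and the aminotransferases, 4 of tryptophan, 5 of tyrosine, 4 of histidine, 6 of serine, glycine and glyoxylate, 4 of proline and ornithine, 3 of branched-chain amino acids, 3 of lysine and 6 of methionine and cysteine. All 53 were found in the table, and all 53 passed the filter on low counts.

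RNA-seq was performed on livers of 12 male C57BL/6 mice (C57BL/6J in the study's methods) aged 21 weeks with diet-induced obesity, which had received a diet with 60% of energy from fat from 5 weeks of age. The 3 groups were vertical sleeve gastrectomy (VSG, n = 4), in which 90% of the stomach volume was removed, sham surgery followed by food restriction to match the body weight of VSG mice (Sham-WM, n = 4), and sham surgery with a return to unrestricted feeding (Sham-Ad lib, n = 4). All mice were culled on day 16 after surgery, following 5 hours without food, and all had undergone laparotomy and the same diet, so no unoperated or chow-fed library was compared. The study asked whether VSG acts on the liver beyond the weight loss that food restriction alone brings, a question that the comparison of VSG with Sham-WM addresses, while the comparison of Sham-WM with Sham-Ad lib shows food restriction and weight loss after a sham operation.

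Library totals lay between 15122520 and 19384076 reads counted on genes. The title of a sample and the name of its library share an animal number, which set the group, but the description field of the same labels pairs 8 of the 12 libraries with another group. Index numbers of the libraries are consecutive within each group, and an effect of that order cannot be told apart from the operation or the feeding. Hepatocyte markers (9 genes, Alb among them) summed to between 74300 and 144000 counts per 1000000 (CPM) in every library, and 6 of 7 pancreas markers were at 0 throughout. Levels below are CPM after scaling by trimmed means, and fold changes are log2 values from edgeR with a standard error (SE), called, or said to have passed, at an adjusted p below 0.05 over all 13054 genes tested unless another fit is named. The p-values measure the spread between these mice. In bulk tissue, fewer cells of a type and less RNA per cell cannot be told apart.

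The VSG livers also differed from those of Sham-WM in inflammatory transcripts. Acute phase genes (18 genes, Saa1 and Hp among them) summed to 35700 to 114000 CPM in VSG, 21800 to 25000 in Sham-WM and 22600 to 64500 in Sham-Ad lib. Of the 18, 16 were higher in VSG than in Sham-WM (88.9%, beside 15.0% of all genes). In VSG against Sham-Ad lib 0 of them were called, and 3 were lower in Sham-WM than in Sham-Ad lib. Neutrophil markers (9 genes, 7 of them tested, S100a8 and S100a9 among them) summed to 29.8 to 925 CPM in VSG, 1.69 to 2.9 in Sham-WM and 0.92 to 14.8 in Sham-Ad lib. All 7 tested were higher in VSG than in Sham-WM and 6 were higher than in Sham-Ad lib, and none of the 9 was at 0 in every library. Kupffer cell and macrophage markers (11 genes) were all higher in VSG than in Sham-WM, at 676 to 1860 CPM against 183 to 306. Sham-Ad lib stood at 207 to 663 CPM, and 2 of the 11 were higher in VSG than in that group. VSG library 1F was highest in all 3 sums. Hepatocyte markers summed to 74300 to 119000 CPM in VSG, 117000 to 144000 in Sham-WM and 99900 to 118000 in Sham-Ad lib. Gene by gene the 9 did not share that difference. In VSG against Sham-WM 1 was higher and 1 lower, with a median log2 fold change of 0.13. The part of these differences in the results below was not tested.

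Across the 53 members, few transcripts changed in any comparison. Food restriction raised 1 member and lowered 4 (Sham-WM against Sham-Ad lib, 9.43% of members), beside 6.99% of all genes tested, of which 3.53% were higher and 3.45% lower. VSG against Sham-WM gave 2 higher and 3 lower members (9.43%), beside 26.9% of all genes, 15.0% higher and 11.9% lower. VSG against Sham-Ad lib gave 0 members, beside 0.751% of all genes. At an unadjusted p below 0.05 that comparison gave 6 members (Slc25a13, Slc38a4, Slc38a3, Got1, Gpt2 and Bckdhb), beside 24.1% of all genes, and DESeq2 called 2, Slc38a3 and Got1, beside 8.42%. DESeq2 called 8 members in Sham-WM against Sham-Ad lib, beside 9.94% of genes, adding Slc25a15, Tdo2 and Bckdha to the 5 of edgeR. It called 11 in VSG against Sham-WM, beside 27.8%, adding Asl, Nags, Slc38a3, Glud1, Hgd and Gldc.

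The median log2 fold change of the members was -0.04 in Sham-WM against Sham-Ad lib, -0.11 in VSG against Sham-Ad lib and -0.08 in VSG against Sham-WM, where all genes tested had medians of 0.00, 0.03 and 0.03. The libraries of each pair of groups did not overlap for 14 members in Sham-WM against Sham-Ad lib (26.4%, beside 17.6% of all genes), for 1 in VSG against Sham-Ad lib (1.89%, beside 9.21%) and for 6 in VSG against Sham-WM (11.3%, beside 26.2%). Most members were measured closely enough to bound their change. The 95% interval of the log2 fold change lay between -1 and 1, within a doubling or halving, for 44, 49 and 44 of the 53 members in the same order of comparisons. These were 83.0%, 92.5% and 83.0% of members, beside 73.9%, 73.6% and 66.4% of all genes tested. An interval inside those limits bounds a change and does not show that there was none.

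**Figure D1:**
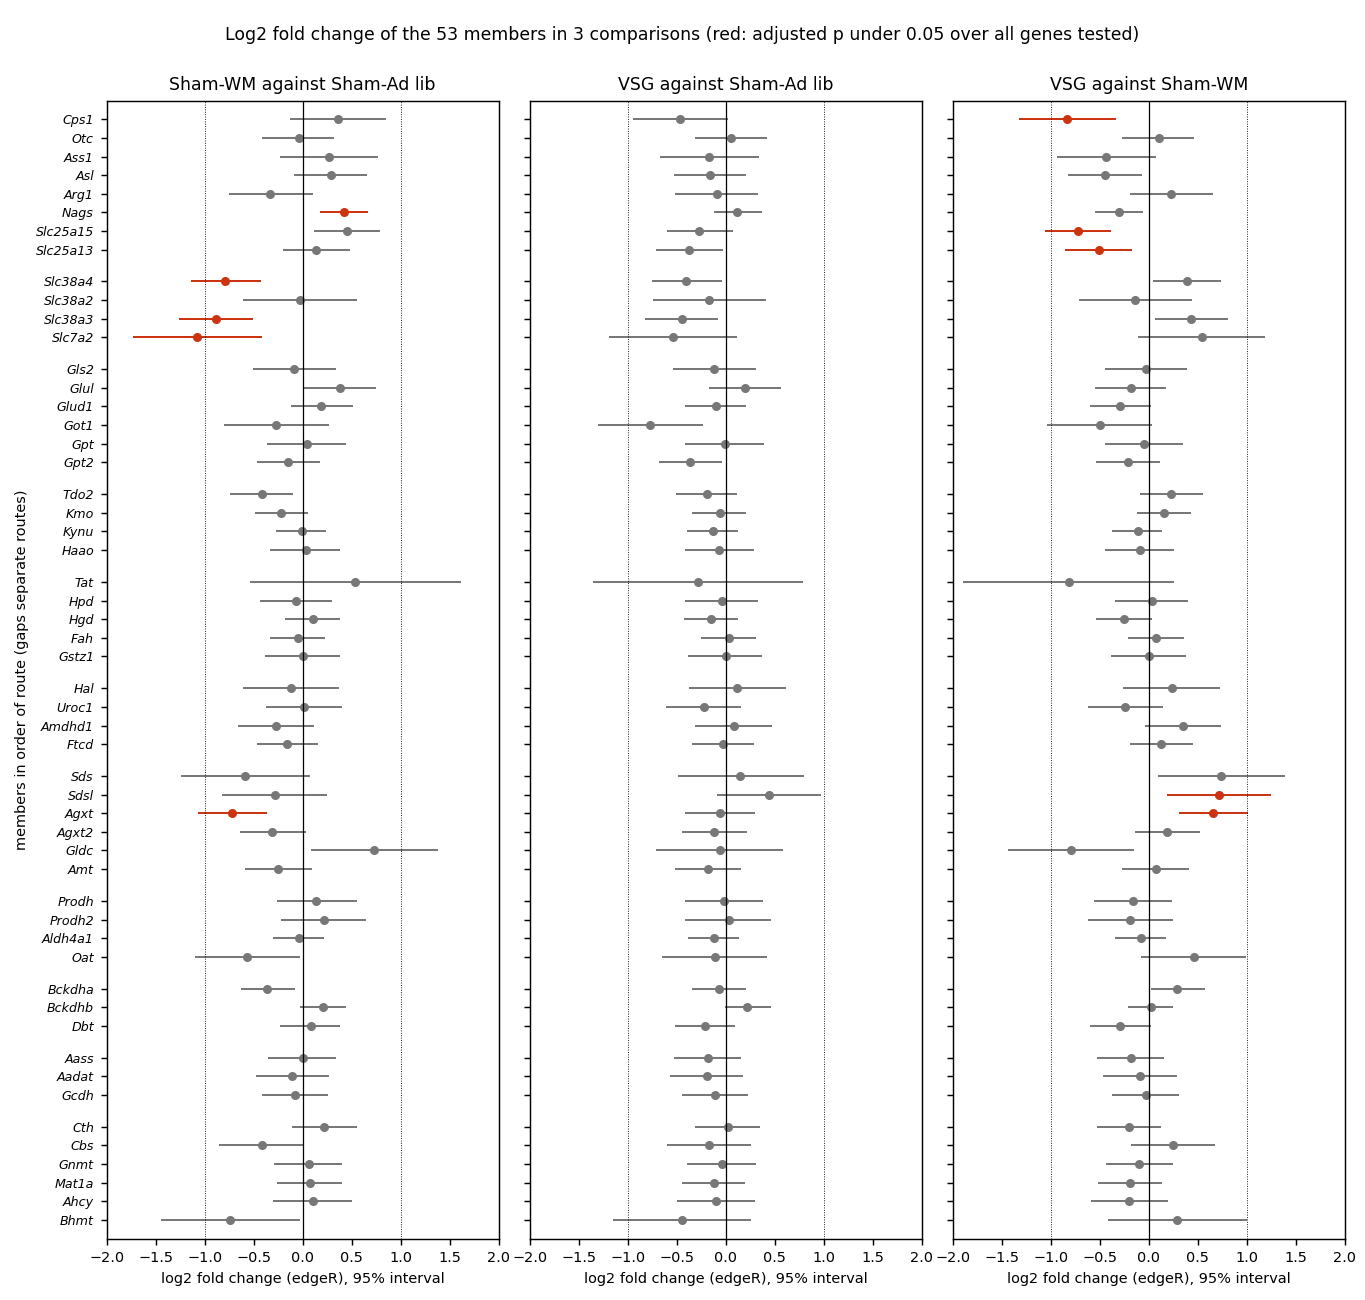
Log2 fold change of each of the 53 members (points) with its 95% interval (lines) in the 3 comparisons, members in order of route on the vertical axis; red marks an adjusted p below 0.05 over all genes tested and dotted lines stand at -1 and 1. The 5 red members on the left and the 5 on the right differ except for Agxt, and the middle panel holds none.

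Levels differed widely between members. Per kilobase of annotated exon, the highest mean in Sham-Ad lib was that of Ass1, at 1570 ± 388 CPM per kb (SD, n = 4), followed by Hpd (1090 ± 121), Mat1a (1020 ± 110), Gnmt (924 ± 76.2), Ahcy (866 ± 135) and Cps1 (730 ± 98.8). From Hpd to Ahcy each level lay within the larger SD of its neighbour. The lowest level was that of Sdsl, at 5.68 ± 1.83 CPM per kb, followed by Slc38a2 (14.0 ± 3.7), with Gldc and Nags (19.3 ± 1.52) next. Summed over the 53 members, transcripts came to 40000 ± 4980 CPM for VSG, 43700 ± 3270 for Sham-WM and 45700 ± 4230 for Sham-Ad lib, ranges that overlapped.

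The first steps of the urea cycle take place in mitochondria. Nags makes N-acetylglutamate, the activator that carbamoyl phosphate synthetase needs, Cps1 is that synthetase and the entry point of ammonia, and Otc joins carbamoyl phosphate to ornithine. Slc25a15 is the mitochondrial ornithine carrier and Slc25a13 is citrin, the aspartate-glutamate carrier that supplies aspartate to the cytosol. There Ass1 and Asl make argininosuccinate and split it to arginine, and Arg1 releases urea.

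Cps1 (ENSMUSG00000025991, mm10 chr1:67123026-67231259, plus strand) was lower after VSG than after weight-matched food restriction. Its level was 4950, 5413, 4915 and 5530 CPM in Sham-WM, 1922, 3756, 2170 and 3895 in VSG and 3541, 4367, 4666 and 3644 in Sham-Ad lib. Every VSG library lay below every Sham-WM library, and within VSG the libraries 1F and 11F stood well below 8F and 18F. The log2 fold change of VSG against Sham-WM was -0.83 ± 0.22 (SE, adjusted p = 0.0174, 95% interval -1.31 to -0.34), and it remained called in 12 of 12 fits that left out 1 library, at -0.99 to -0.67. Against Sham-Ad lib the values were -0.47 ± 0.22 for VSG (adjusted p = 0.219) and 0.36 ± 0.22 for Sham-WM (adjusted p = 0.386), although all Sham-WM libraries lay above all Sham-Ad lib libraries.

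The ornithine carrier Slc25a15 (ENSMUSG00000031482, chr8:22375551-22398597, minus strand) had the lowest p-value among members in VSG against Sham-WM. It was measured at 361, 356, 339 and 429 CPM in Sham-WM, 232, 220, 198 and 252 in VSG, and 261, 333, 292 and 198 in Sham-Ad lib. The VSG values were tightly grouped and did not reach the Sham-WM values, whereas Sham-Ad lib spanned most of the distance between them. VSG was lower than Sham-WM by -0.72 ± 0.15 on the log2 scale (adjusted p = 0.00542), called in 12 of 12 fits without 1 library. Sham-WM against Sham-Ad lib gave 0.45 ± 0.15 (adjusted p = 0.0932) and VSG against Sham-Ad lib -0.27 ± 0.15 (adjusted p = 0.297).

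Citrin, Slc25a13 (ENSMUSG00000015112, chr6:6041218-6217173, minus strand), was measured at 307, 331, 314 and 314 CPM in Sham-WM, 178, 193, 235 and 284 in VSG and 307, 235, 336 and 271 in Sham-Ad lib. Here too no VSG library reached the lowest Sham-WM library. The change of VSG against Sham-WM was -0.51 ± 0.15 (adjusted p = 0.0269). That call was lost in 5 of 12 fits without 1 library (9F, 15F, 16F, 1F or 8F), where adjusted p reached 0.0765. Over all 12 such fits the log2 change stayed between -0.65 and -0.42. VSG against Sham-Ad lib gave -0.37 ± 0.15 (adjusted p = 0.165), which passed without VSG library 18F (adjusted p = 0.0481) and with 2 RUVr factors for unwanted variation.

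Nags (ENSMUSG00000048217, chr11:102145513-102149477, plus strand) was the member that rose under food restriction. Its level was 50.3, 52.9, 56.2 and 60.3 CPM in Sham-Ad lib, 62.1, 76.8, 75.7 and 80.0 in Sham-WM, and 60.1, 58.6, 67.5 and 52.8 in VSG. All Sham-WM libraries lay above all Sham-Ad lib libraries, with 2F close to the boundary. The change was 0.42 ± 0.11 on the log2 scale (adjusted p = 0.0341). The size held at 0.38 to 0.50 in all 12 fits without 1 library, but the call was lost in 7 of them (without 3F, 4F, 6F, 10F, 9F, 15F or 16F, adjusted p up to 0.111). VSG against Sham-WM gave -0.30 ± 0.11 (adjusted p = 0.0556), which passed without 10F, 2F or 11F.

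The other members of the cycle did not pass in edgeR over all 12 libraries. Otc was measured at 516, 538, 612 and 561 CPM in Sham-Ad lib, 527, 551, 536 and 547 in Sham-WM, and 431, 456, 725 and 700 in VSG. The VSG libraries lay on both sides of the sham groups, 1F and 8F below and 11F and 18F above, and VSG against Sham-WM gave 0.10 ± 0.16 (adjusted p = 0.686, 95% interval -0.26 to 0.45). Ass1 was measured at 2925, 4873, 4260 and 3092 CPM in Sham-Ad lib, 4497, 5508, 3899 and 4346 in Sham-WM, and 2094, 3997, 3425 and 3973 in VSG. These ranges overlapped throughout, with VSG against Sham-WM at -0.44 ± 0.23 (adjusted p = 0.17).

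Asl was measured at 366, 488, 505 and 514 CPM in Sham-Ad lib, 596, 614, 571 and 505 in Sham-WM, and 309, 375, 532 and 461 in VSG. VSG against Sham-WM gave -0.45 ± 0.17 (adjusted p = 0.0646), and this passed without VSG library 11F (adjusted p = 0.0209), with DESeq2 (adjusted p = 0.0193), with DESeq2 size factors in edgeR and with RUVr factors. Arg1 was measured at 1123, 1479, 1391 and 1156 CPM in Sham-Ad lib, 1251, 1273, 767 and 818 in Sham-WM, and 998, 1189, 1471 and 1170 in VSG. The Sham-WM libraries split into 2F and 9F at the level of Sham-Ad lib and 15F and 16F below every other library. The values for Arg1 were -0.33 ± 0.19 in Sham-WM against Sham-Ad lib and 0.23 ± 0.19 in VSG against Sham-WM, adjusted p = 0.364 and 0.387.

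**Figure D2:**
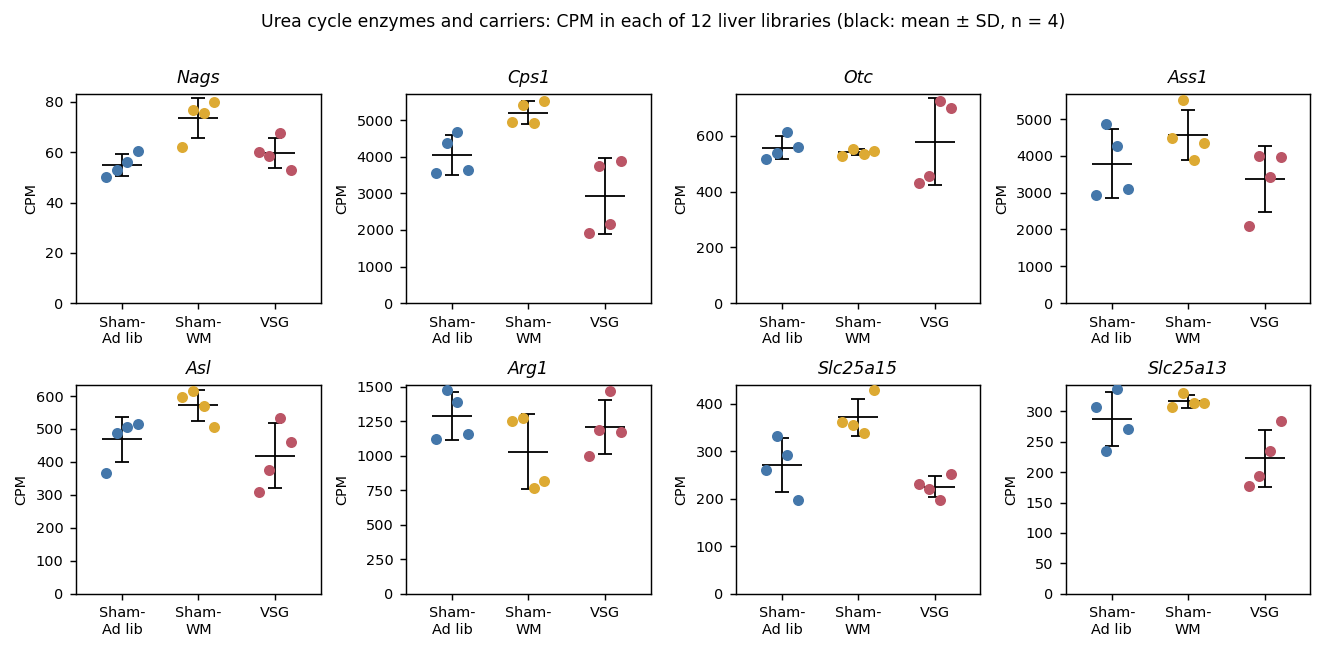
CPM of the 8 urea cycle members in each of the 12 libraries, 4 per group, with the mean and SD in black. For Cps1, Slc25a15 and Slc25a13 the 4 VSG points lie below the 4 Sham-WM points, whereas for Nags, Otc, Ass1, Asl and Arg1 these groups overlap.

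Taken over the route, 3 of 8 urea cycle members were lower in VSG than in Sham-WM and 0 were higher, beside 11.9% lower and 15.0% higher of all genes, with a median of -0.44. In Sham-WM against Sham-Ad lib 1 was higher and 0 lower, beside 3.53% and 3.45% of all genes, with a median of 0.28. In VSG against Sham-Ad lib 0 were called, beside 0.751%, with a median of -0.16. Summed over the 8, the level was 10800 ± 1710 CPM for Sham-Ad lib, 12700 ± 1110 for Sham-WM and 9020 ± 2040 for VSG. By library, VSG had 6224 (1F), 10240 (8F), 8824 (11F) and 10790 (18F), all below the lowest Sham-WM library at 11420. Cps1 and Ass1 made up most of the sum, with means of 5200 and 4560 CPM in Sham-WM and 2940 and 3370 in VSG. Means of Otc and Arg1 were higher in VSG (578 and 1210 CPM) than in Sham-WM (540 and 1030 CPM). Library 1F, the lowest, had the highest summed acute phase level (114300 CPM) and neutrophil level (924.7 CPM). Library 18F, the highest of VSG, had the lowest of both (35730 and 29.8 CPM). For neutrophil markers the order did not hold between the others, since 8F had more neutrophil transcripts than 11F (383 and 123.9 CPM) and the higher urea cycle sum. The acute phase level was 87770 CPM in 8F and 94740 CPM in 11F. Within VSG the acute phase sums thus ran in the opposite order to the urea cycle sums. Sham-Ad lib library 4F had an acute phase level of 56270 CPM and the highest urea cycle sum of its group, 12370 CPM. Library 10F had the highest acute phase level of that group, 64500 CPM, and a urea cycle sum of 9497 CPM. A link between these sums was not tested. A fit chosen after seeing the data left out 1F and 8F, the highest in neutrophil markers. It kept 11F, with its acute phase level of 94740 CPM, so it did not set aside all livers with high acute phase levels. In that fit Cps1 stood at -0.81 (adjusted p = 0.0451) and Slc25a15 at -0.75 (adjusted p = 0.035) in VSG against Sham-WM. Slc25a13 stood at -0.32 in that fit and no longer passed (adjusted p = 0.187).

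**Figure D3:**
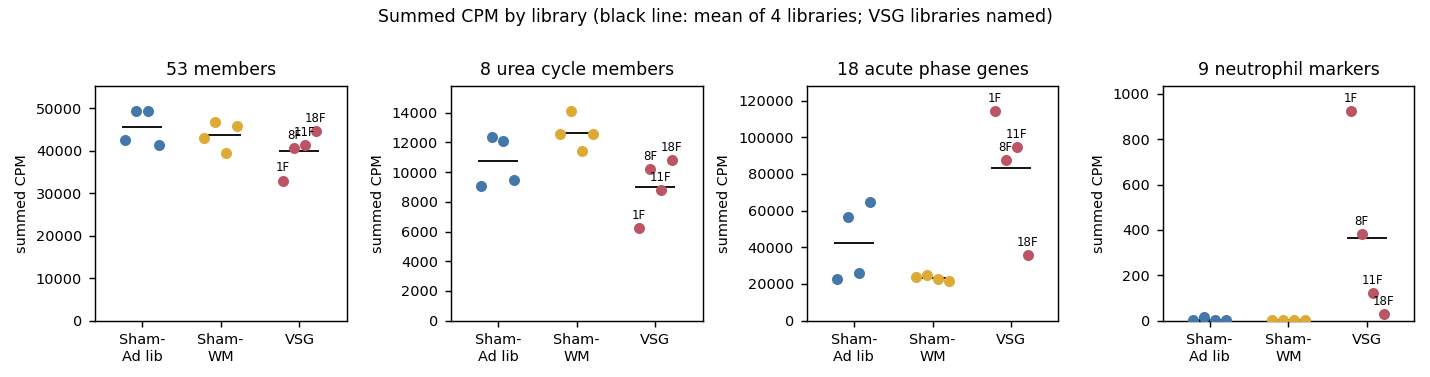
Summed CPM per library of all 53 members, of the 8 urea cycle members, of 18 acute phase genes and of 9 neutrophil markers, with a line at the mean of each group and the VSG libraries named. Library 1F is lowest in both member sums and highest in both marker sums.

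The 4 plasma membrane carriers bring amino acids into the hepatocyte. Slc38a2, Slc38a3 and Slc38a4 belong to the sodium-coupled neutral amino acid transporters, Slc38a3 carrying mainly glutamine, histidine and asparagine, and Slc7a2 is a carrier of cationic amino acids such as arginine and lysine. Slc38a3, Slc38a4 and Slc7a2 were all lower under food restriction than in Sham-Ad lib (3 of 4, 75.0%, beside 3.45% lower of all genes).

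Slc38a3 (ENSMUSG00000010064, chr9:107650634-107669530, minus strand) was measured at 2112, 2571, 2459 and 2565 CPM in Sham-Ad lib, 1481, 1513, 1151 and 1111 in Sham-WM, and 1438, 2256, 1581 and 1827 in VSG. The Sham-Ad lib and Sham-WM libraries were far apart and the VSG libraries filled the space between them. Sham-WM was lower than Sham-Ad lib by -0.88 ± 0.17 on the log2 scale (adjusted p = 0.00829), called in 12 of 12 fits without 1 library.

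Slc38a4 (ENSMUSG00000022464, chr15:96994820-97055956, minus strand) was measured at 1835, 2003, 1745 and 1650 CPM in Sham-Ad lib, 987, 1064, 1064 and 1075 in Sham-WM, and 1047, 1733, 1167 and 1549 in VSG. The Sham-WM values were nearly equal to one another. The VSG libraries 1F and 11F lay at the Sham-WM level, and 8F lay within the Sham-Ad lib range and 18F just below it. Sham-WM against Sham-Ad lib gave -0.79 ± 0.16 (adjusted p = 0.0113), again called in 12 of 12 fits.

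Slc7a2 (ENSMUSG00000031596, chr8:40862396-40922308, plus strand) was measured at 863, 1163, 872 and 499 CPM in Sham-Ad lib, 394, 335, 397 and 484 in Sham-WM, and 429, 659, 334 and 916 in VSG. Library 10F of Sham-Ad lib, at 499 CPM, was just above the highest Sham-WM library. Sham-WM against Sham-Ad lib gave -1.08 ± 0.30 (adjusted p = 0.0469), the largest change of any member in that comparison. The call was lost in 8 of 12 fits without 1 library (3F, 4F, 6F, 2F, 9F, 15F, 16F or 8F, adjusted p up to 0.121). Over all 12 the log2 change ran from -1.27 to -0.89.

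Slc38a2, on chromosome 15 as is Slc38a4, ran from 95.2 to 161 CPM in Sham-Ad lib, 92.2 to 143 in Sham-WM and 62.7 to 157 in VSG. The groups overlapped fully, and Sham-WM against Sham-Ad lib gave -0.03 ± 0.26 (95% interval -0.60 to 0.54). In VSG against Sham-WM, none of the 4 carriers passed. The values were 0.39 ± 0.16 for Slc38a4 (adjusted p = 0.0834), 0.43 ± 0.17 for Slc38a3 (0.0719), 0.54 ± 0.30 for Slc7a2 (0.19) and -0.14 ± 0.26 for Slc38a2 (0.724). Slc38a4 passed in that comparison without VSG library 1F (adjusted p = 0.0371). In VSG against Sham-Ad lib the same genes, in the same order, stood at -0.40, -0.45, -0.54 and -0.17, with adjusted p of 0.157, 0.135, 0.284 and 0.721.

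Glycine, serine and glyoxylate are handled by a further group. Agxt is the aminotransferase that turns glyoxylate to glycine, Sds and its paralog Sdsl are serine dehydratases that release ammonia and pyruvate, and Gldc and Amt are components of the glycine cleavage system. Agxt was the member called in 2 comparisons.

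Agxt (ENSMUSG00000026272, chr1:93135240-93145421, plus strand) was measured at 266, 351, 279 and 282 CPM in Sham-Ad lib, 188, 226, 144 and 158 in Sham-WM, and 227, 324, 283 and 299 in VSG. Sham-WM lay below both other groups in every library, narrowly for 9F (226 CPM) against VSG library 1F (227 CPM). Sham-WM against Sham-Ad lib gave -0.72 ± 0.16 (adjusted p = 0.0171), which was lost without Sham-WM library 15F or 16F (adjusted p up to 0.064, fold change no smaller than -0.62). In VSG against Sham-WM the value was 0.66 ± 0.16 (adjusted p = 0.01), called in 12 of 12 fits. Without both 1F and 8F it was 0.66 (adjusted p = 0.0354). The comparisons share the Sham-WM libraries and are not independent. VSG against Sham-Ad lib gave -0.06 ± 0.16 (95% interval -0.40 to 0.29).

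Sdsl (ENSMUSG00000029596, chr5:120458186-120472810, minus strand) was measured at 6.31, 12.5, 7.74 and 7.47 CPM in Sham-Ad lib, 6.73, 7.99, 6.94 and 6.30 in Sham-WM, and 8.96, 16.9, 11.8 and 8.42 in VSG. VSG lay above Sham-WM in every library, by the smallest margin for 18F. VSG against Sham-WM gave 0.72 ± 0.24 (adjusted p = 0.0432). The call was lost in 8 of 12 fits without 1 library (6F, 10F, 2F, 9F, 15F, 16F, 8F or 11F), with adjusted p up to 0.139, and also without both 1F and 8F (0.49, adjusted p = 0.192). Over all 12 the log2 change ran from 0.45 to 0.84.

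The neighbouring paralog Sds was more abundant, with a mean of 132 CPM in Sham-Ad lib beside 8.5 for Sdsl. It stood at 76.7, 241, 134 and 75.9 CPM in Sham-Ad lib, 99.0, 81.9, 92.8 and 77.8 in Sham-WM, and 134, 151, 126 and 177 in VSG. All VSG libraries lay above all Sham-WM libraries, while Sham-Ad lib spread across both. VSG against Sham-WM gave 0.74 ± 0.30 (adjusted p = 0.0808). This value passed without Sham-Ad lib library 4F (adjusted p = 0.0125). Sds shares 360 bases of exon with Plbd2 on the opposite strand, which had a mean of 1280 reads, and whether reads were counted by strand is not given in the sources used here.

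Gldc, the decarboxylase of glycine cleavage, ran from 68.1 to 150 CPM in Sham-Ad lib, 139 to 228 in Sham-WM and 58.3 to 174 in VSG. It gave 0.73 ± 0.30 in Sham-WM against Sham-Ad lib (adjusted p = 0.166) and -0.79 ± 0.30 in VSG against Sham-WM (adjusted p = 0.0622). Agxt2 and Amt did not pass either, at 0.19 ± 0.15 and 0.07 ± 0.15 in VSG against Sham-WM. Over the route, 2 of 6 members were higher and 0 lower in VSG than in Sham-WM, beside 15.0% and 11.9% of all genes, with a median of 0.43 and a range of -0.79 to 0.74.

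**Figure D4:**
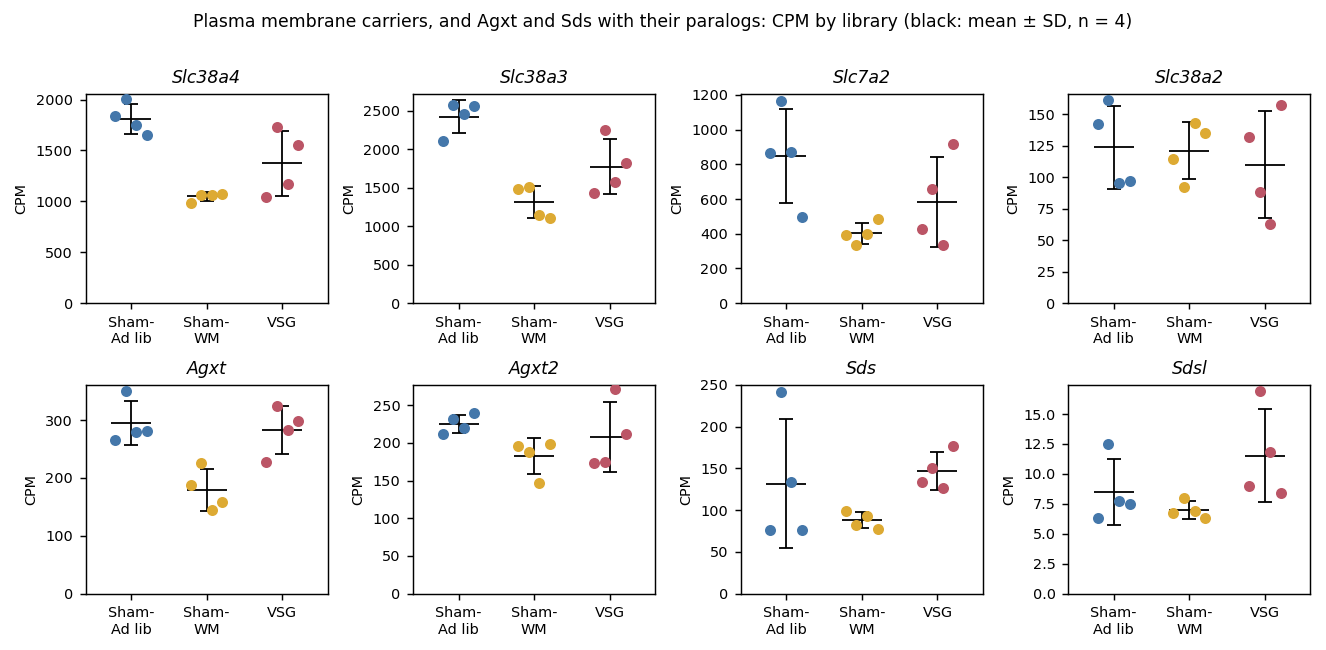
CPM of the 4 plasma membrane carriers and of Agxt, Agxt2, Sds and Sdsl in each of the 12 libraries, 4 per group, with the mean and SD in black. Sham-WM lies below Sham-Ad lib for Slc38a4, Slc38a3, Slc7a2 and Agxt, and below VSG for Agxt, Sds and Sdsl.

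For 3 members called in a Sham-WM comparison, a promoter window from RefSeq (GRCm38.p6) that holds a motif searched is shown, each as the 250 bases upstream of the start, read on the gene's strand, so that the letters behind the motif counts can be seen. They are Agxt (chr1:93134990-93135239), Slc25a13 (chr6:6217174-6217423) and 1 of the 3 windows of Slc38a4 (chr15:97031214-97031463). Capitals mark a match to 1 of the 6 motifs searched on both strands.
Agxt: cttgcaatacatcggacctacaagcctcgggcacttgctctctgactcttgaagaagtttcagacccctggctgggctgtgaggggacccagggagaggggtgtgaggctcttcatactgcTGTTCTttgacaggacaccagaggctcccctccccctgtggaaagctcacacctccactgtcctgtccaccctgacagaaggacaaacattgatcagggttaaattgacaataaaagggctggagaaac
Slc25a13: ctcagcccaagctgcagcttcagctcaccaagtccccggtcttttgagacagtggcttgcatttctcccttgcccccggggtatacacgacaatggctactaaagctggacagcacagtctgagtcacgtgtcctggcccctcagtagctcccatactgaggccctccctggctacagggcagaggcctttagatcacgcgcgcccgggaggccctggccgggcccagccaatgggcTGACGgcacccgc
Slc38a4: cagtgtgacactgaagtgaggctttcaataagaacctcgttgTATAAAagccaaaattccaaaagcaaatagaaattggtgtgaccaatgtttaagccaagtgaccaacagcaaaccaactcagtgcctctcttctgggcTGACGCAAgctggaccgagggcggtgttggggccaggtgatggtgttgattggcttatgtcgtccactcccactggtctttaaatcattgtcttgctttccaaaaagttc

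In Agxt the capitals are a short glucocorticoid receptor motif (AGAACA, on the other strand) 129 bases upstream of the start, and in Slc25a13 the short form of the cAMP response element (TGACG) 13 bases upstream. In Slc38a4 they are a TATAAA 208 bases upstream and, overlapping each other, TGACG, which begins 110 bases upstream, and the short CCAAT/enhancer-binding protein motif TTGCG on the other strand. Of the other windows of Slc38a4, that at chr15:97020360-97020609 also holds AGAACA on the other strand. Windows were found for 40 of 53 members, 46 windows in all, and those of Cps1, Slc38a3, Slc7a2 and Sdsl were not among them. The windows of Nags and Slc25a15 held none of the 6 motifs. TGACG was in 13.0% of member windows and 17.8% of the 32851 windows searched, TTGCG in 8.7% and 14.5%, AGAACA in 8.7% and 16.1%, and TATAAA in 15.2% and 12.4%. The windows searched did not cover every chromosome and were not limited to genes tested. The full elements TGACGTCA and TTGCGCAA were in 0 member windows, and in 1.55% and 0.164% of all windows searched. A match is a run of letters and no sign of binding.

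Glutamine and glutamate link the carriers to the cycle. Gls2 is the liver glutaminase, Glul makes glutamine, Glud1 releases ammonia from glutamate, and Got1, Gpt and Gpt2 are aminotransferases of aspartate and alanine. None of the 6 passed in edgeR. Got1 came closest in VSG against Sham-Ad lib. It stood at 281, 470, 354 and 207 CPM in Sham-Ad lib, 299, 328, 209 and 256 in Sham-WM, and 175, 236, 134 and 226 in VSG, and gave -0.77 ± 0.24 (adjusted p = 0.0937). Library 10F of Sham-Ad lib lay within the VSG range. Glul gave 0.38 ± 0.17 in Sham-WM against Sham-Ad lib (adjusted p = 0.201), with all Sham-WM libraries (1329 to 1683 CPM) above all Sham-Ad lib libraries (910 to 1297 CPM).

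The paralogs Gpt and Gpt2, which exchange alanine and pyruvate in cytosol and mitochondria, gave -0.05 ± 0.18 and -0.21 ± 0.15 in VSG against Sham-WM. Against Sham-Ad lib, VSG stood at -0.01 ± 0.18 for Gpt and -0.36 ± 0.15 for Gpt2 (adjusted p = 0.976 and 0.16). All 6 members of this route had a value below 0 in VSG against Sham-WM, between -0.50 and -0.03.

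Tryptophan is opened by Tdo2 and passed through Kmo, Kynu and Haao, and tyrosine is deaminated by Tat and degraded by Hpd, Hgd, Gstz1 and Fah. None of these 9 passed in edgeR over all 12 libraries. Tdo2 stood at 1582 to 2012 CPM in Sham-Ad lib, 1168 to 1408 in Sham-WM and 1215 to 1758 in VSG, and gave -0.42 ± 0.14 in Sham-WM against Sham-Ad lib (adjusted p = 0.0983), with no overlap between those libraries. It passed there with DESeq2, in the fit on those 2 groups alone and with either kind of RUV factor. Tat was the least even member within groups, with a pooled SD of 0.85 on the log2 scale beside a median of 0.23 for members and 0.26 for all genes. Its libraries ran from 440 to 1970 CPM in Sham-Ad lib, 688 to 1943 in Sham-WM and 331 to 1342 in VSG. Its change in VSG against Sham-WM, -0.81 ± 0.50, therefore had an interval of -1.88 to 0.25. Fah and Gstz1, by contrast, stood at 0.07 ± 0.13 and 0.00 ± 0.17.

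Histidine is degraded by Hal, Uroc1, Amdhd1 and Ftcd in turn. None passed, and in VSG against Sham-WM their values ran from -0.24 (Uroc1) to 0.35 (Amdhd1), with a median of 0.18. Lysine breakdown through Aass, Aadat and Gcdh gave values of -0.18 to -0.03 in that comparison and -0.11 to 0.00 in Sham-WM against Sham-Ad lib. Over all 3 comparisons, no 95% interval of a lysine gene reached beyond 0.56 in size.

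Prodh, Prodh2, Aldh4a1 and Oat were grouped as the route of proline and ornithine. None of the 4 passed. Oat, the aminotransferase that moves ornithine away from the urea cycle, stood at 970, 1483, 1420 and 747 CPM in Sham-Ad lib, 758, 706, 584 and 1069 in Sham-WM, and 831, 1000, 1376 and 1068 in VSG. Its values were -0.57 ± 0.24 in Sham-WM against Sham-Ad lib (adjusted p = 0.196) and 0.46 ± 0.24 in VSG against Sham-WM (adjusted p = 0.178). The paralogs Prodh and Prodh2 gave -0.16 ± 0.18 and -0.19 ± 0.20 in VSG against Sham-WM. Prodh2 passed in that comparison without VSG library 11F (adjusted p = 0.0208), where it was highest of 12 libraries at 309 CPM.

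Branched-chain amino acids are committed to breakdown by a mitochondrial dehydrogenase whose subunits Bckdha, Bckdhb and Dbt were measured here. Bckdha stood at 245, 255, 255 and 237 CPM in Sham-Ad lib, 208, 211, 176 and 178 in Sham-WM, and 195, 216, 278 and 257 in VSG. Its Sham-WM libraries were below all Sham-Ad lib libraries, at -0.36 ± 0.12 (adjusted p = 0.1). In VSG against Sham-WM it stood at 0.29 ± 0.12 (adjusted p = 0.0923). Bckdha passed without VSG library 11F in the first comparison (adjusted p = 0.0419) and without VSG library 1F in the second (0.0495). Its partner Bckdhb gave 0.21 ± 0.10 in Sham-WM against Sham-Ad lib (adjusted p = 0.269) and 0.02 ± 0.10 in VSG against Sham-WM, and Dbt gave 0.08 ± 0.14 and -0.29 ± 0.14.

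The methionine cycle and transsulfuration are served by Mat1a, Gnmt, Ahcy, Bhmt, Cbs and Cth, which include some of the most abundant members. None passed. Mat1a, the liver methionine adenosyltransferase, ran from 2782 to 3993 CPM over all 12 libraries, and VSG against Sham-WM gave -0.19 ± 0.15. Bhmt, which remethylates homocysteine with betaine, stood at 3555, 3436, 3828 and 3456 CPM in Sham-Ad lib, 2003, 3460, 761 and 2331 in Sham-WM, and 2685, 1986, 3118 and 2687 in VSG. The Sham-WM libraries were widely spread, and VSG lay below Sham-Ad lib in every library. The values were -0.74 ± 0.32 in Sham-WM against Sham-Ad lib (adjusted p = 0.203) and -0.45 ± 0.32 in VSG against Sham-Ad lib (adjusted p = 0.406).

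Much of the variation among members lay between libraries of 1 group. VSG library 1F was lowest of its group for 34 of 53 members and lowest of all 12 libraries for 23. VSG library 11F was highest of its group for 27 members and highest of all 12 for 12. Sham-WM library 15F was lowest of its group for 28 members. Cps1 and Slc38a4 had low values in both 1F and 11F, whereas Otc was low in 1F and high in 11F. The count of members called in VSG against Sham-WM was 6 without 1F, 7 without 11F and 3 without 15F, 9F, 16F or 8F.

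**Figure D5:**
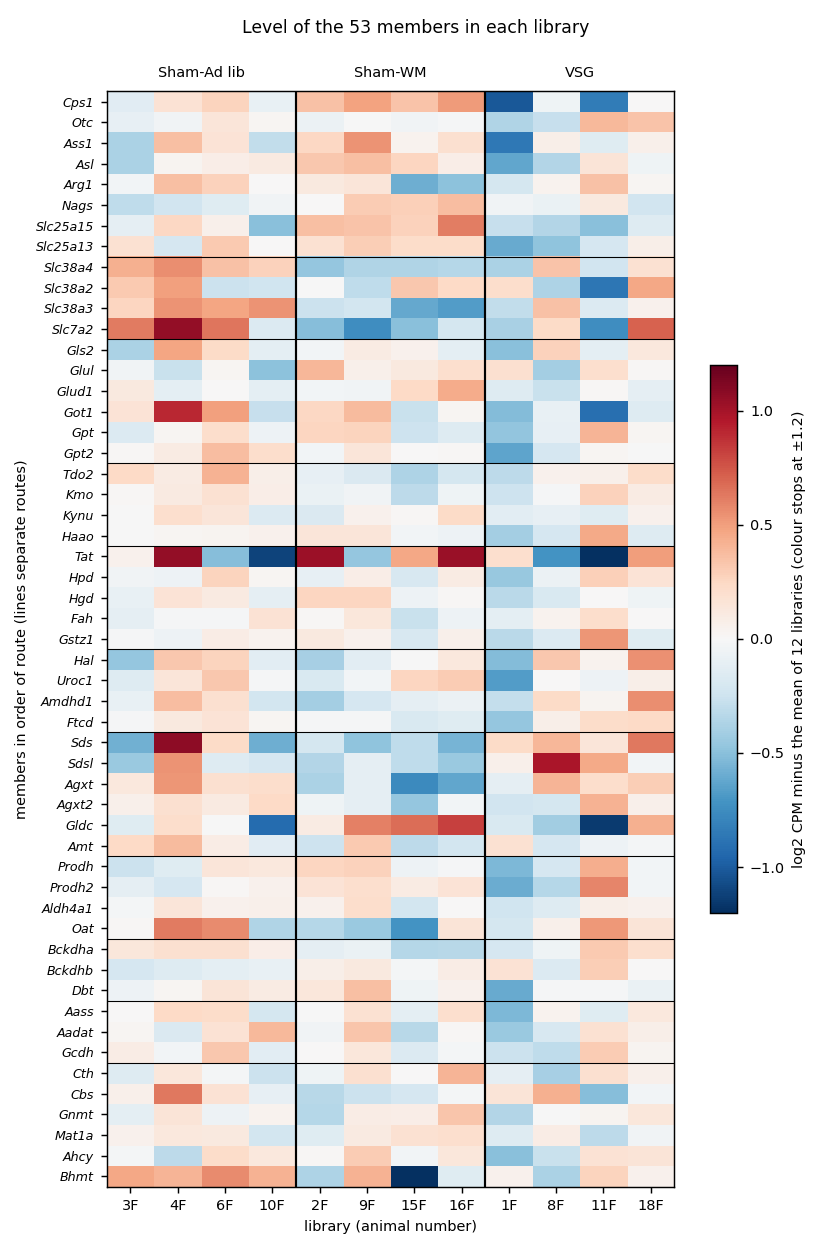
Log2 CPM of each of the 53 members in each of 12 libraries, as the difference from its mean over all 12, members in order of route and libraries in columns by group (red higher, blue lower, colour limited to ±1.2). Column 1F of VSG is blue for most members and column 11F mixes red and dark blue, while Cps1 and Slc25a15 are red across Sham-WM.

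Other genes of amino acid metabolism were taken from fixed lists, of which 102 genes were tested. In VSG against Sham-WM 11 were higher and 15 lower, 25.5% in all beside 26.9% of all genes. In Sham-WM against Sham-Ad lib 4 were higher and 3 lower (6.86%, beside 6.99% of all genes). In VSG against Sham-Ad lib 0 were called, beside 0.751%. By list, the share called in VSG against Sham-WM ran from 6.67% (regulators) to 46.7% (one-carbon and sulfur).

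The one-carbon and sulfur list held 5 lower and 2 higher genes of 15 in VSG against Sham-WM (46.7%, beside 26.9% of all genes). Suox, sulfite oxidase, stood at -0.64 ± 0.15, and Dmgdh, which oxidises dimethylglycine, at -0.60 ± 0.18. The higher genes were Mat2a, the methionine adenosyltransferase of tissues other than liver, at 0.69 ± 0.12 (adjusted p = 0.002), and Cdo1, cysteine dioxygenase, at 0.53 ± 0.14.

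Among 10 tested genes of serine, glycine, threonine and glyoxylate, Shmt1 (-0.61 ± 0.13), Gcat (-0.41 ± 0.14) and Dld (-0.36 ± 0.10) were lower and Grhpr, glyoxylate reductase, was higher (0.41 ± 0.12). Of 10 aromatic genes, Acmsd, which steers tryptophan carbon away from NAD synthesis, stood at -1.24 ± 0.30 (adjusted p = 0.00957) and Kyat3 at -0.64 ± 0.21, and 0 were higher. Acmsd was also higher in Sham-WM than in Sham-Ad lib, by 1.09 ± 0.29 (adjusted p = 0.0415).

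Of 11 tested genes of lysine, proline, arginine and aspartate, Odc1, which opens polyamine synthesis from ornithine, was lower at -0.93 ± 0.12 (adjusted p = 0.000428), after 0.56 ± 0.12 in Sham-WM against Sham-Ad lib. Asns, asparagine synthetase, was higher at 3.86 ± 1.17 (adjusted p = 0.0286), with means of 0.581 CPM in Sham-WM and 8.54 in VSG. It was scarce and uneven, at 2.16 to 15.8 CPM in VSG and 0.27 to 15.3 in Sham-Ad lib. VSG against Sham-Ad lib gave 0.96 ± 0.98 for Asns (adjusted p = 0.569). Aspg, an asparaginase, was higher in VSG than in Sham-WM at 0.78 ± 0.18. It was lower in Sham-WM than in Sham-Ad lib at -0.81 ± 0.18 (adjusted p = 0.0187), and VSG against Sham-Ad lib gave -0.03 ± 0.18. Of 18 tested branched-chain genes, Ppm1k, the phosphatase that activates the dehydrogenase, was higher at 0.50 ± 0.14 and had been lower in Sham-WM than in Sham-Ad lib at -0.90 ± 0.14 (adjusted p = 0.00292). Auh was higher at 0.47 ± 0.14.

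Of 23 tested amino acid transporters, 4 were higher and 3 lower in VSG against Sham-WM (30.4%, beside 26.9% of all genes). Slc38a1 (1.54 ± 0.43, mean 1.54 CPM in Sham-WM and 4.47 in VSG), Slc7a8 (1.03 ± 0.36) and the glutamate carrier Slc1a2 (0.91 ± 0.11, adjusted p = 0.000233) were higher, and the branched-chain carrier of mitochondria Slc25a44 (-0.88 ± 0.15), the taurine carrier Slc6a6 (-0.54 ± 0.17) and Slc6a13 (-0.48 ± 0.15) were lower. Slc1a2, also a pericentral hepatocyte marker, was lower in Sham-WM than in Sham-Ad lib (-0.75 ± 0.11, adjusted p = 0.00161). Among 15 regulators, Creb1, a factor that answers to cAMP, was lower at -0.47 ± 0.14 (adjusted p = 0.0235), and Gcgr, the glucagon receptor, did not pass (0.26 ± 0.11, adjusted p = 0.0947). Atf4, which drives amino acid response genes, rose in Sham-WM against Sham-Ad lib by 0.81 ± 0.16 (adjusted p = 0.00829).

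The calls depended on how unwanted variation was handled, as the study removed it with 2 factors. With 2 factors from the spread within groups (RUVs), 0 of the 5 members called in VSG against Sham-WM still passed, and Cps1 stood at -0.43 (adjusted p = 0.4), Slc25a15 at -0.61 (0.103), Slc25a13 at -0.06 (0.83), Agxt at 0.58 (0.194) and Sdsl at 0.22 (0.789). With 2 factors from residuals (RUVr) all 5 passed among 13 members. In Sham-WM against Sham-Ad lib the same 5 members passed under both. Grouped by the description field, 0 members passed in any comparison, and 0 genes overall.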

How the data were processed

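Poly(A) RNA from liver was made into directional libraries and read in pairs on a HiSeq2500. Per the labels and the study's methods, the authors aligned reads to mm10 with TopHat2 2.1.1 and counted them on genes with featureCounts; the deposited values are raw counts per Ensembl gene, and the annotation release and strand setting are not given in the sources used here. Symbols came from GENCODE. Genes passing filterByExpr (minimum count 10, minimum total 15) were scaled by TMM and tested with edgeR 4.0.16 (quasi-likelihood, all 12 libraries, R 4.3.3), with Benjamini-Hochberg adjustment over 13054 genes and calls at 0.05. DESeq2 1.42.0, other scalings and filters, 2 RUV factors, grouping by description and leaving out libraries were alternatives. The script was tested on simulated data. Libraries are taken as separate mice, and precision is set by 4 per group. Set out for every library were 6 urea cycle enzymes and, per other route, up to 3 members passing in any comparison, with paralogs beside each other; Slc25a15, Slc25a13, Sds, Got1, Oat, Bckdha and Bhmt were added after their values were seen, as were the other members given with ranges. From the other lists, up to 3 genes in each direction were named; 1 that the rule names is not reported here. Members and lists were chosen with earlier results of these data known.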

Additional observations from a re-analysis of the deposited data

Results flagged for a closer look

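In 5 of 159 sets of 4 libraries (53 members in 3 groups), the highest or lowest library stood apart from the others by more than Dixon's 95% limit. Chance flags about 1 in 20 such sets. Gstz1, of tyrosine breakdown, was at 1160 CPM in VSG library 11F beside 642 to 726 in the other VSG libraries. Dbt, a subunit of the branched-chain dehydrogenase, was at 83.6 CPM in VSG library 1F beside 120 to 126. Amt, of glycine cleavage, was at 65.9 CPM in Sham-WM library 9F beside 42.6 to 45.5. Kmo, of tryptophan breakdown, was at 295 CPM in Sham-WM library 15F beside 347 to 356. Slc38a4 was at 987 CPM in Sham-WM library 2F beside 1064 to 1075, a small gap in a tight group.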

How the results depend on the processing

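The number of members called (5 in Sham-WM against Sham-Ad lib, 0 in VSG against Sham-Ad lib, 5 in VSG against Sham-WM) became 8, 2 and 11 with DESeq2 and 10, 6 and 13 with 2 RUVr factors. With 2 RUVs factors it became 9 in the first and 1 (Slc7a2) in the last, and with groups by the description field 0 in both. Other scalings, filters and the fit on 2 groups kept the counts within 1.5 times. Without 1 library they ranged from 2 to 6, 0 to 1 and 3 to 7. Leaving out VSG libraries 1F and 8F together, chosen after seeing the data, gave 3 members in Sham-WM against Sham-Ad lib. Under the description field the log2 changes in Sham-WM against Sham-Ad lib turned to -0.21 for Nags, 0.40 for Slc38a4, 0.46 for Slc38a3, 0.82 for Slc7a2 and 0.44 for Agxt, and in VSG against Sham-WM to -0.57 for Sdsl and -0.27 for Agxt; none passed. These groups mix libraries of different animal numbers. The description field lists the library names in text order beside titles in group order. Index numbers run in blocks that match the groups by animal number. Which label field is right was not tested. The medians of members moved by less than the spread between libraries under all alternatives. With 4 libraries per group, small changes in members as uneven as Tat or Bhmt were not detectable.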
